A study of Mus musculus with 8 samples.

Results

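The genes described here are 46 mouse genes of connective tissue: 30 of the extracellular matrix and its turnover, 6 of the contractile apparatus, 3 niche signals (Dll1, Cxcl12 and Kitl), 3 adhesion or growth factor receptor genes and 4 secreted regulators. They were chosen by name, with earlier results of these data known. All 46 were found among the 24538 gene names of the RNA files. They were measured in a preparation that the labels describe as bone marrow-derived DN1 cells, the earliest T-lineage stage without CD4 or CD8, grown on a stromal monolayer. The study asked what the transcription factors TCF1 (gene Tcf7) and LEF1 do at the start of the T lineage.

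LSK cells, the bone marrow fraction that holds stem and early progenitor cells, were taken from mice with a CreER transgene (tamoxifen-inducible Cre) that were either wild type or floxed at Tcf7 and Lef1. The sources used here give neither the driver of CreER nor the ages of the mice. Both genotypes were cultured on OP9-DL1, a mouse bone marrow stromal line made to display Delta-like 1, a Notch ligand, and both received 4-hydroxytamoxifen on days 3 to 5. The gate of the day 7 sort was Lin-CD8-CD4-CD44hiCD25- ckit+. This gate requires c-Kit, which blood progenitors carry, and names no CD45, the pan-leukocyte marker. RNA-seq and ATAC-seq, which marks open chromatin through transposase insertions, each had 2 control and 2 knockout libraries. Nothing in the labels says that replicates came from separate animals or cultures, so p-values measure the spread between these libraries, which may be technical.

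Stromal cells build the matrix on which blood progenitors rest. They secrete collagens, fibronectin and proteoglycans, cross-link them with lysyl oxidases, and remodel them with metalloproteinases held in check by TIMP inhibitors. Actin-based contractile proteins let such cells pull on that matrix, and their genes are typical of myofibroblasts and smooth muscle. Marrow stroma also displays signals to progenitors: CXCL12 retains them through CXCR4, KIT ligand (Kitl, stem cell factor) sustains them through KIT, and Delta-like 1 triggers Notch. In OP9-DL1 the Delta-like 1 comes from an introduced Dll1 cDNA, whose reads would also be counted under Dll1. Blood progenitors are not a usual source of fibrillar collagen.

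The sequences upstream of a few of these genes are shown first, because 3 of them held an ATAC peak at the start in both knockout lists and in neither control list, and 3 others show RNA that differed between genotypes without such a peak at the start. Each is the 250 bases before the gene start, 5′ to 3′ on the gene's strand, from RefSeq on GRCm38.p6 (the mm10 build). In Cald1 (chr6:34598254-34598503, plus strand), Col6a3 (chr1:90843972-90844221, minus strand) and Col6a1 (chr10:76726045-76726294, minus strand), capitals mark the bases covered by a peak in both knockout lists.
Cald1: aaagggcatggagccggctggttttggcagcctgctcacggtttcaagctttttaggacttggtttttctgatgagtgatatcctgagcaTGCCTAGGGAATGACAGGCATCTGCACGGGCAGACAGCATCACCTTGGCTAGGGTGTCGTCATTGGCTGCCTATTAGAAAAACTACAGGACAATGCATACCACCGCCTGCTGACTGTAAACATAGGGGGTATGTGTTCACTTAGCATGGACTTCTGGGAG
Col6a3: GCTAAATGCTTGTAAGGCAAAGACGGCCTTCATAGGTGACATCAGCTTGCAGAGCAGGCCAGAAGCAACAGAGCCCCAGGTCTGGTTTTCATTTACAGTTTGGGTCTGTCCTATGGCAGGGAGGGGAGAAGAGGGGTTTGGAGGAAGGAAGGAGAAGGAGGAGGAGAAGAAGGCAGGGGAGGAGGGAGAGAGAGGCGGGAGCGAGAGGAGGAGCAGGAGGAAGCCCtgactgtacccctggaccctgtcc
Col6a1: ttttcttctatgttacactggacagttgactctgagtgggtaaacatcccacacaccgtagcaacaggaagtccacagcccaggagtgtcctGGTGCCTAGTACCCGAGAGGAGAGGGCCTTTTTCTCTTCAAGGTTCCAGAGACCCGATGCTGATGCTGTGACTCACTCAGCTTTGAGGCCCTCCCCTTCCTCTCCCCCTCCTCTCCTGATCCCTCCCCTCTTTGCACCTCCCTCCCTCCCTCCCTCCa
Capitals cover 160 of these bases in Cald1, 226 in Col6a3 and 157 in Col6a1. They run up to the start in Cald1, leave out the last base before it in Col6a1, and stop farther short of it in Col6a3.

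Postn (chr3:54360857-54361106, plus strand) had no peak within 1 kb of its start in any list, and capitals mark its TATAAA. Bgn (chrX:73483351-73483600, plus strand) had none within 1 kb either and is printed without capitals. Myl9 (chr2:156775214-156775463, plus strand) carries a CArG box, the site that serum response factor binds, in capitals at −161 to −152.
Postn: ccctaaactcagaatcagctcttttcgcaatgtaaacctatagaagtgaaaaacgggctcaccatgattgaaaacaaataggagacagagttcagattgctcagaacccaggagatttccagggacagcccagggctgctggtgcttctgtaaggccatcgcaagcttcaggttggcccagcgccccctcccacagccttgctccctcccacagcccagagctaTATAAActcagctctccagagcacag
Bgn: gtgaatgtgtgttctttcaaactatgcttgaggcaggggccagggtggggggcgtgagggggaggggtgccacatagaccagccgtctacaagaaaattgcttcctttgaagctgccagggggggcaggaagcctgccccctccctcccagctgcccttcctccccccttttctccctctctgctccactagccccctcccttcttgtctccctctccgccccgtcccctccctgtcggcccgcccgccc
Myl9: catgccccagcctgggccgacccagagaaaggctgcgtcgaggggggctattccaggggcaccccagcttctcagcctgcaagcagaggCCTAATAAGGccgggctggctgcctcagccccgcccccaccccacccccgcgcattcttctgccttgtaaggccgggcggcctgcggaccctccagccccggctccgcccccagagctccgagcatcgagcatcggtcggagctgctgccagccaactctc
RefSeq windows of 250 bases before and 50 after the start were found for 31 of the 46 genes. On either strand, and with matches of different motifs allowed to overlap, the CArG box occurred in 1 of 31 of these windows against 1.57% of 27025 windows of all genes. GGAATG, a core of TEAD factor sites, occurred in 6 of 31 (14.6% of all windows), TATAAA in 6 (14.2%), an NF-kappaB-type motif in 13 (20.5%) and CAGACA, a SMAD-type element, in 11 (21.0%). Among the windows of genes tested in RNA, the shares were 1.32%, 11.6%, 6.96%, 26.3% and 15.6% in the same order. These matches describe letters only.

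The libraries and the deletion were checked once. The RNA libraries listed between 13050 and 13314 genes at 1 TPM or more (a level scaled for transcript length and library size). Read counts were not used here, so depth per gene is unknown. Tcf7 stood at 518 and 510 TPM in control and at 13.2 and 12.4 TPM in knockout, whereas Lef1 was at 1.10 to 1.66 TPM in every library and says nothing about its deletion. Over all 13228 genes that averaged 1 TPM or more, limma on log2(TPM + 1) called 25.2% higher and 14.7% lower in knockout at a Benjamini-Hochberg adjusted p under 0.05. These 3331 higher and 1940 lower calls became 2451 and 2512 after median-ratio scaling, which moved the median log2 change from 0.09 to −0.00. The Rpph1 transcript alone stood at 193500 and 191800 TPM in control and at 152250 and 157670 TPM in knockout. TPM is a share of the library, so this difference bears on the TPM of all other genes. With Rpph1 left out of the scaling the median log2 change was 0.03.

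Of the 46 genes, 41 passed the filter on low values, and 33 of the 41 (80.5%) were called higher in knockout, beside the 25.2% of all tested genes. None was called lower by limma, beside 14.7%; at an unadjusted p under 0.05 the counts were 35 higher and 0 lower. The remaining 8 not called were Pdgfra, Pdgfrb, Sparc, Thbs1, Timp3, Lox, Cyr61 and Igfbp4. The 5 not tested were Lum, Dcn, Cnn1, Ctgf and Igfbp5. Col8a1 and Postn passed the filter through the knockout libraries, with control means under 1 TPM; among the 39 genes with a control mean of at least 1 TPM, 31 were called higher. Both knockout libraries lay above both control libraries for 35 of the 41 (44.4% of all tested genes) and below them for 2 (29.0%), Thbs1 and Timp3.

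The median fold between mean TPM was 2.01 for the 41 genes and 1.07 for all tested genes, and the median log2 changes were 1.01 and 0.09. Folds ran from 0.77 for Timp3 to 14.7 for Postn. They were under 1 for 4 genes, between 1 and 1.5 for 6, between 1.5 and 2 for 9, between 2 and 3 for 14, and 3 or more for 8: Col8a1, Mgp, Postn, Loxl1, Acta2, Tagln, Myl9 and Cald1. A called rise of at least 1.5-fold was seen in 30 of the 41 and in 12.2% of all tested genes, and one of at least 2-fold in 21 and in 4.8%. Without control replicate 1, 21 of the 41 were called higher. The 12 calls lost were those of Vcam1, Col3a1, Col5a1, Col6a3, Col8a1, Col12a1, Fn1, Thbs2, Timp1, Loxl1, Serpinh1 and Tpm2, whose limma adjusted p then lay between 0.0512 and 0.146.

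**Figure D1:**
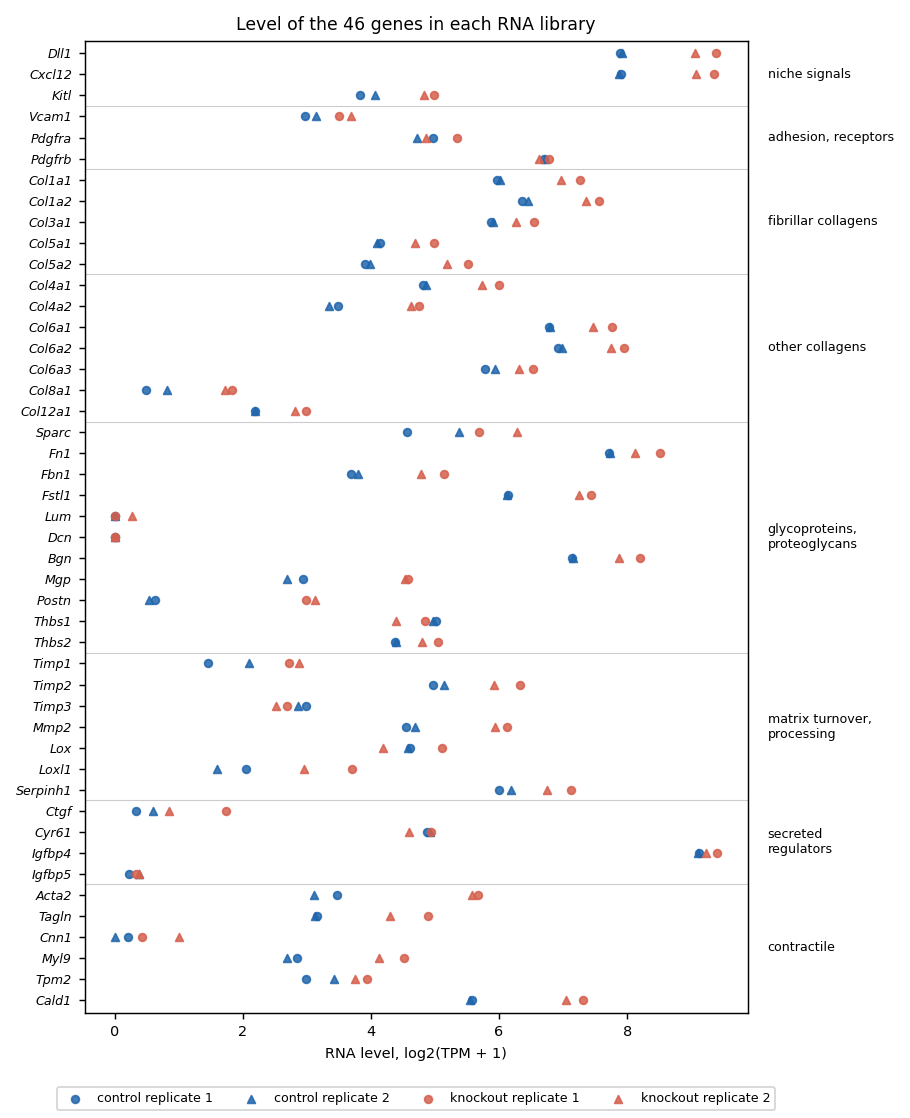
Level of each of the 46 genes as log2(TPM + 1) (horizontal axis, genes by role on the vertical axis), with 1 point for each of the 2 control (blue) and 2 knockout (red) RNA libraries; circles are replicate 1 and triangles replicate 2. Igfbp4, Dll1 and Cxcl12 stand highest, and the knockout points lie to the right of the control points for most matrix and contractile genes.

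The 3 niche signals rose together. Dll1 (chr17:15367354-15375823, minus strand) was at 236 and 241 TPM in control and at 671 and 534 TPM in knockout. Its mean rose from 238 ± 3.50 to 603 ± 96.9 TPM (SD, n = 2), 2.53-fold (log2 change 1.33, SE 0.11, limma adjusted p = 0.000907). Both knockout libraries lay far above both control libraries, and the gap exceeded the difference between the knockout libraries themselves. Cxcl12 (chr6:117168535-117181368, plus strand), the chemokine that retains progenitors, was at 239 and 234 TPM in control and at 653 and 537 TPM in knockout, 2.52-fold (log2 change 1.32, SE 0.09, limma adjusted p = 0.000668). Kitl (chr10:100015821-100100415, plus strand), the ligand of KIT, was at 13.2 and 15.7 TPM in control and 30.6 and 27.4 TPM in knockout, 2.01-fold (log2 change 0.96, limma adjusted p = 0.00314). Dll1 and Cxcl12 were thus near one another in level in every library, and Kitl far below both.

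Adhesion and growth factor receptor genes moved less. Vcam1, the cell-surface ligand of the integrin that contains the ITGA4 subunit, was at 6.80 and 7.87 TPM in control and 10.3 and 11.8 TPM in knockout, 1.51-fold (log2 change 0.54, limma adjusted p = 0.0352). This call was kept in 4 of 12 alternative settings, with adjusted p between 0.032 and 0.148. Pdgfra and Pdgfrb, receptors for platelet-derived growth factors that mark mesenchymal cells, were not called. Pdgfra was at 30.3 and 25.3 TPM in control and 39.5 and 28.1 TPM in knockout, with overlapping groups and a log2 change of 0.26 (95% confidence interval −0.19 to 0.71, limma adjusted p = 0.296). Pdgfrb was at 103 and 104 TPM in control and 109 and 97.3 TPM in knockout. Its log2 change was −0.00 (95% confidence interval −0.17 to 0.17, limma adjusted p = 0.967), an interval that excludes the size of change seen for the niche signals.

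All 5 fibrillar collagen genes, whose products form the banded fibres of connective tissue, rose, with a median fold of 2.10. Col1a1 (chr11:94936224-94953042, plus strand) was at 61.3 and 63.5 TPM in control and 152 and 124 TPM in knockout, 2.22-fold (log2 change 1.13, SE 0.10, limma adjusted p = 0.0012). Col1a2, which encodes the partner chain of collagen I, was at 80.7 and 86.6 TPM in control and 189 and 163 TPM in knockout, 2.10-fold. Both chains of collagen I were raised by nearly the same factor. Col5a2 (chr1:45374331-45503282, minus strand), a chain of the collagen that starts such fibres, went from 14.1 and 14.8 TPM to 44.8 and 35.4 TPM, 2.78-fold (log2 change 1.40, limma adjusted p = 0.0013). Col5a1 rose 1.69-fold, from 16.5 and 16.1 TPM to 30.5 and 24.7 TPM, and Col3a1 1.45-fold, from 57.5 and 58.7 TPM to 92.7 and 75.5 TPM. The groups did not overlap for any of the 5 genes.

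The 7 other collagen genes were all called higher as well, with a median fold of 1.87. Col4a1 and Col4a2, neighbouring genes read away from each other for the chains of basement membrane collagen, rose 2.09-fold and 2.55-fold. Col4a1 was at 27.0 and 28.0 TPM in control and 62.9 and 52.0 TPM in knockout, and Col4a2 at 10.3 and 9.20 TPM and at 26.0 and 23.6 TPM. The collagen VI genes, for beaded filaments around cells, were the most abundant of this group: Col6a1 was at 109 and 110 TPM in control and 217 and 177 TPM in knockout. Col6a1, Col6a2 and Col6a3 rose 1.80-fold, 1.87-fold and 1.49-fold. Col12a1 rose 1.83-fold from 3.54 and 3.57 TPM, and Col8a1 went from 0.398 and 0.760 TPM to 2.57 and 2.29 TPM (limma adjusted p = 0.0227). Both of these low genes lost their call when control replicate 1 was left out.

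Among 11 glycoprotein and proteoglycan genes, 9 were tested and 7 rose. Postn (chr3:54361107-54391041, plus strand), which encodes periostin, a matricellular protein of remodelling tissue, was at 0.544 and 0.453 TPM in control and 6.88 and 7.76 TPM in knockout. This was 14.7-fold between mean TPM, with a log2 change of 2.47 on the TPM + 1 scale (SE 0.21, limma adjusted p = 0.00103). Mgp, which encodes matrix Gla protein, an inhibitor of calcification, went from 6.70 and 5.44 TPM to 23.0 and 22.1 TPM, 3.71-fold (limma adjusted p = 0.000875). The 2 knockout libraries were close to each other for both genes, unlike for most collagens. Fbn1, which encodes the microfibril protein fibrillin, rose 2.45-fold from 11.9 and 12.9 TPM to 34.3 and 26.6 TPM. Fstl1, a secreted follistatin-like protein, rose 2.33-fold from 69.7 and 68.6 TPM to 171 and 151 TPM. Bgn, for the proteoglycan biglycan, rose 1.87-fold from 140 and 141 TPM to 294 and 232 TPM, and Fn1, for fibronectin, 1.53-fold from 209 and 212 TPM to 366 and 279 TPM. Thbs2 rose 1.49-fold, from 19.6 and 20.004 TPM to 32.2 and 26.8 TPM.

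The proteoglycan genes Dcn and Lum were nearly silent. Dcn, for decorin, was listed at 0 in all 4 libraries, and Lum, for lumican, at 0 in 3 libraries and 0.209 TPM in knockout replicate 2. Thbs1, for thrombospondin 1, was not raised with Thbs2: it was at 31.4 and 30.2 TPM in control and 27.6 and 20.1 TPM in knockout (log2 change −0.37, limma adjusted p = 0.111). Without knockout replicate 1, Thbs1 was called lower (limma adjusted p = 0.023). Sparc, for a collagen-binding glycoprotein, was at 22.7 and 40.6 TPM in control and 50.5 and 76.8 TPM in knockout, 2.01-fold. It missed the threshold narrowly (log2 change 1.01, limma adjusted p = 0.0508), and replicate 2 was well above replicate 1 in both genotypes. With 1 library left out, the log2 change of Sparc ran from 0.60 (without control replicate 1) to 1.42 (without control replicate 2).

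Of 7 genes of matrix turnover and processing, 5 rose. Mmp2, for a gelatin-cleaving metalloproteinase, went from 22.3 and 24.9 TPM to 68.8 and 59.96 TPM, 2.73-fold (log2 change 1.41, limma adjusted p = 0.000675). Timp2, for an inhibitor that also takes part in activating that enzyme, went from 30.4 and 34.3 TPM to 79.2 and 59.3 TPM, 2.14-fold. Protease and inhibitor were therefore both higher in the same libraries. Timp1 rose 2.39-fold from 1.75 and 3.26 TPM to 5.60 and 6.37 TPM, whereas Timp3 was at 6.96 and 6.24 TPM in control and 5.42 and 4.70 TPM in knockout (limma adjusted p = 0.164). Serpinh1, the collagen chaperone HSP47, rose 1.81-fold from 62.8 and 72.1 TPM to 138 and 106 TPM. Loxl1, a lysyl oxidase-like enzyme, rose 3.64-fold from 3.13 and 2.03 TPM to 12.0 and 6.77 TPM (limma adjusted p = 0.0145). Lox, the founding member of that family, was at 23.3 and 22.8 TPM in control but at 33.6 and 17.2 TPM in knockout, so the knockout libraries lay on both sides of the control libraries (log2 change 0.06, 95% confidence interval −0.67 to 0.80). Without knockout replicate 2 Lox was called higher (limma adjusted p = 0.0283), and without knockout replicate 1 its log2 change was −0.40.

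Of the 4 secreted regulators 2 were tested and limma called 0, with 1 of them, Igfbp4, under 0.05 before adjustment. Igfbp4, which binds insulin-like growth factors, had the highest level of all 46 genes, at 554 and 550 TPM in control and 679 and 598 TPM in knockout (1.16-fold, limma adjusted p = 0.0503). The groups did not overlap, and without knockout replicate 2 Igfbp4 was called (limma adjusted p = 0.0116). Cyr61 (also named Ccn1), a matricellular protein encoded by a target of the YAP and TEAD factors, was at 28.3 and 29.3 TPM in control and 29.6 and 23.2 TPM in knockout (log2 change −0.13, 95% confidence interval −0.45 to 0.19). Ctgf, its relative, reached 2.33 TPM in knockout replicate 1 and stayed between 0.261 and 0.796 TPM elsewhere. Igfbp5 was at 0.160 to 0.301 TPM throughout.

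All 5 tested contractile genes rose, and their median fold of 3.12 was the highest of any role. Acta2 (chr19:34240336-34255373, minus strand), for smooth muscle alpha-actin, was at 10.1 and 7.59 TPM in control and 50.1 and 46.7 TPM in knockout, 5.47-fold (log2 change 2.34, SE 0.14, limma adjusted p = 0.000513). Cald1 (chr6:34598504-34775469, plus strand), for the actin-binding protein caldesmon, was the most abundant, at 46.8 and 45.5 TPM in control and 158 and 131 TPM in knockout, 3.12-fold (log2 change 1.62, SE 0.10, limma adjusted p = 0.000477). For both genes the gap between genotypes was wider than the spread within either. Myl9, the regulatory light chain of smooth muscle myosin, rose 3.28-fold from 6.21 and 5.48 TPM to 21.9 and 16.5 TPM. Tagln, for the actin-binding protein transgelin, rose 3.02-fold from 7.93 and 7.69 TPM to 28.6 and 18.5 TPM. Tpm2, for a tropomyosin, rose 1.61-fold from 6.93 and 9.68 TPM to 14.4 and 12.4 TPM, a call kept in 4 of 12 alternative settings (adjusted p between 0.0361 and 0.172). Cnn1, for smooth muscle calponin, was below 1 TPM in every library.

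**Figure D2:**
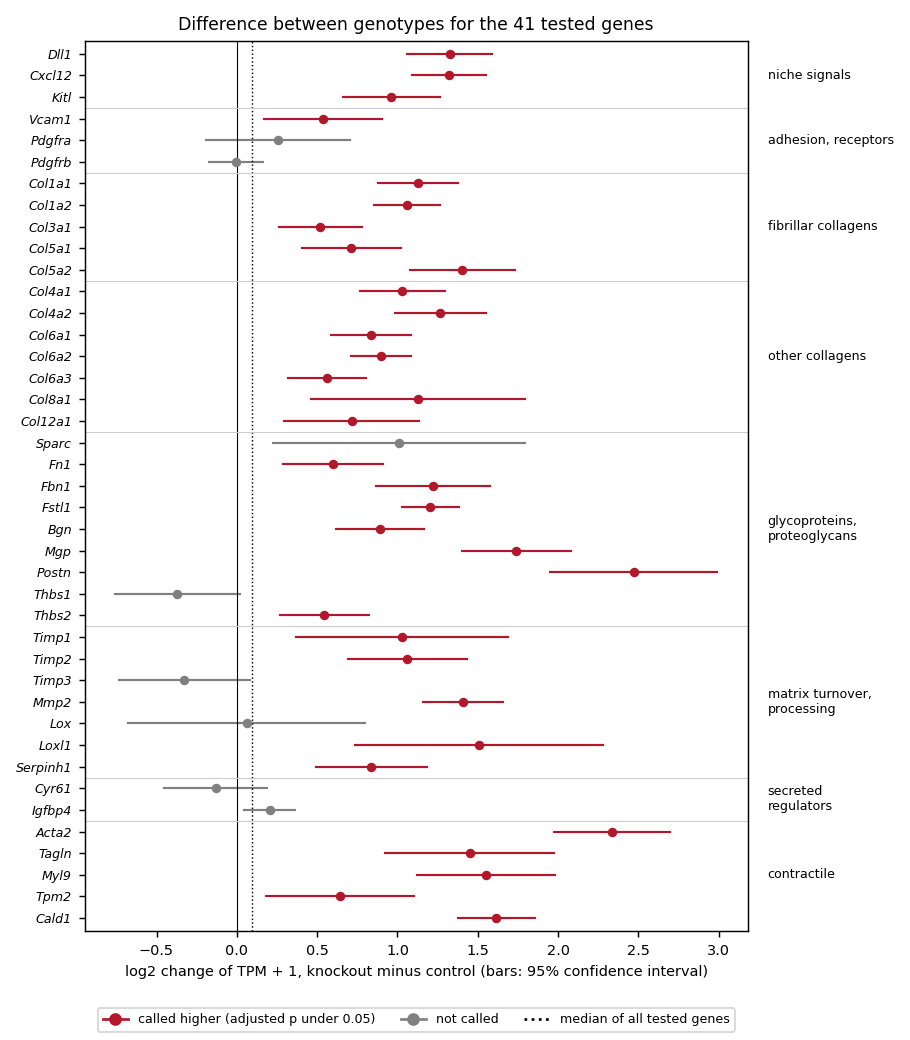
Difference between genotypes for the 41 tested genes (log2 change of TPM + 1, knockout minus control, with 95% confidence intervals; red, called higher; grey, not called). Red points lie to the right of the dotted line at the median of all tested genes, 0.09, and the largest changes are those of Postn (2.47) and Acta2 (2.34).

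Summed levels put the roles side by side. The 46 genes together took 2505 and 2557 TPM in control and 5006 and 4162 TPM in knockout, which is 0.250% and 0.256% of the control libraries and 0.501% and 0.416% of the knockout libraries. The summed fold was 1.81, and it was 1.74 without Dll1. By role it was 3.24 for contractile genes, 2.51 for niche signals, 1.84 for the 30 matrix genes, 1.15 for secreted regulators and 1.07 for adhesion and receptor genes. The matrix genes summed to 1216 and 1274 TPM in control and 2508 and 2078 TPM in knockout, and the contractile genes to 78.2 and 75.9 TPM and to 273 and 226 TPM. Differences between these folds were not tested. In bulk RNA, more cells of a type and more RNA per cell cannot be told apart.

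**Figure D3:**
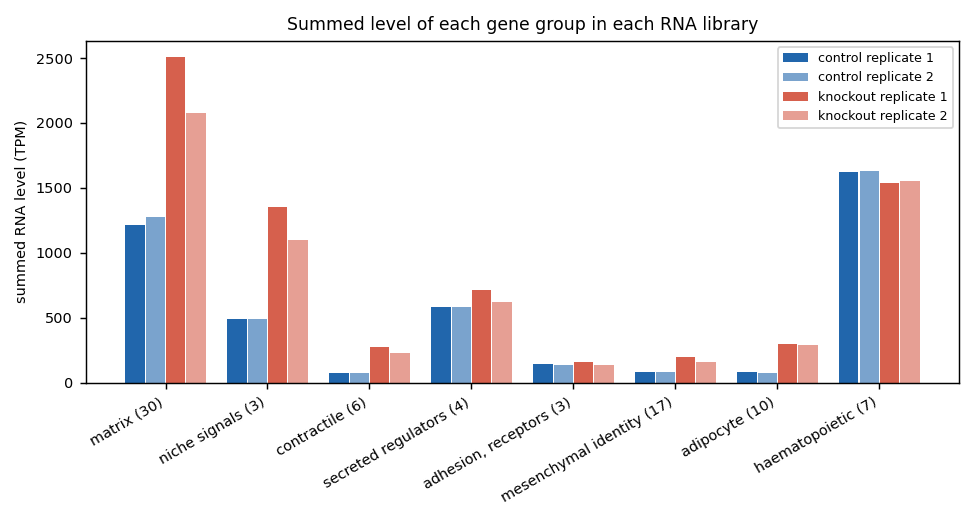
Summed TPM (vertical axis) of the roles and of the mesenchymal identity, adipocyte and haematopoietic lists, with 1 bar for each RNA library and the number of genes in brackets. Contractile genes, niche signals and adipocyte markers stand higher in both knockout libraries, while the haematopoietic list stays within 1537 to 1629 TPM.

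The 2 knockout libraries differed in the same direction for most of these genes. Knockout replicate 1 was above knockout replicate 2 for 37 of the 41 tested genes, beside 55.8% of all tested genes, with a median ratio of 1.21 against 1.02. The exceptions were Vcam1, Sparc, Postn and Timp1. In control, replicate 1 was above replicate 2 for 16 of the 41, beside 51.6% of all tested genes, with a median ratio of 0.99. The excess over control was present in each knockout library, and the summed fold lay between 1.64 and 1.98 with any 1 library left out.

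Most tested mesenchymal and adipocyte markers that were not among the 46 genes moved the same way. These lists too were chosen with earlier results of these data known. Of 17 mesenchymal identity genes 11 were tested, 9 rose, beside 25.2% of all tested genes, and limma called 0 lower, also before adjustment, beside 14.7%. The 2 not called were Tbx15 and Nt5e. Tbx15 was at 1.66 and 1.61 TPM in control and 2.93 and 1.90 TPM in knockout. Nt5e was at 2.18 and 1.29 TPM in control and 1.85 and 0.676 TPM in knockout. The list summed to 84.8 and 83.4 TPM in control and 195 and 158 TPM in knockout. Cdh11, a cadherin of mesenchymal cells, went from 6.61 and 7.09 TPM to 24.5 and 20.3 TPM, and Fap, fibroblast activation protein, from 0.384 and 0.578 TPM to 4.23 and 4.20 TPM. Fap passed the filter through the knockout libraries; of the 10 genes with a control mean of at least 1 TPM, 8 rose. Of 10 adipocyte genes 8 were tested and 7 rose, or 6 of the 6 with such a control mean, beside 25.2% of all tested genes. The 10 genes summed to 85.7 and 71.9 TPM in control and 301 and 291 TPM in knockout. Adipoq, for the fat hormone adiponectin, went from 0.873 and 1.58 TPM to 30.3 and 25.9 TPM. OP9 cells are known to turn into adipocytes readily. RNA of monolayer cells that passed the sort is a possible source of all these transcripts in both genotypes. The gate required c-Kit, and whether monolayer cells passed it was not tested. Their part in the difference was not tested, and no library of the monolayer alone was analysed here.

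Lists of other cell types moved in both directions or were not called. The 7 haematopoietic genes summed to 1621 and 1629 TPM in control and 1537 and 1554 TPM in knockout, 0.95-fold. Of these genes, 3 were called higher and 4 lower, beside 25.2% and 14.7% of all tested genes. The 3 became 1 under quantile, median-ratio and Rpph1-free scaling and with any 1 library left out. Ptprc, which encodes CD45, was at 207 and 232 TPM in control and 129 and 142 TPM in knockout, and Cd34 at 125 and 116 TPM and at 227 and 232 TPM. Pericyte and smooth muscle genes (Myh11, Rgs5, Cspg4, Notch3 and Des) summed to 12.5 and 14.6 TPM in control and 10.3 and 7.60 TPM in knockout, almost all of it Notch3, the only one tested, which fell. Macrophage genes summed to 61.3 and 68.3 TPM in control and 57.4 and 54.9 TPM in knockout. Limma called 0 of 3 tested macrophage genes, 1 being lower before adjustment. Of 5 endothelial genes tested, 2 rose (Tie1 and Tek) and 2 fell (Pecam1 and Plvap), and of 2 osteoblast genes tested Alpl rose. Tek and Alpl passed the filter on low values through the knockout libraries.

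Further genes of the same pathways gave a mixed picture. Of 26 tested genes in a list of 32 other matrix genes, 12 rose and 1 fell, beside 25.2% and 14.7% of all tested genes, and 11 of the 23 with a control mean of at least 1 TPM rose. Without control replicate 2, 7 of the list were called higher. Tnc, for tenascin C, went from 0.696 and 0.362 TPM to 5.30 and 3.63 TPM, and Ogn, for the proteoglycan osteoglycin, from 9.51 and 9.19 TPM to 26.5 and 22.6 TPM. Fbln2, for fibulin 2, was at 35.8 and 35.1 TPM and at 39.7 and 34.8 TPM and was not called. Of 19 tested matrix processing genes 9 rose and 4 fell, beside 25.2% and 14.7% of all tested genes. Without control replicate 1 the count that rose was 5, and without control replicate 2 the count that fell was 1. Mmp14, for a membrane metalloproteinase that activates the Mmp2 product, went from 27.4 and 29.7 TPM to 94.2 and 67.9 TPM. P4ha1 and P4ha2, for collagen prolyl hydroxylase subunits, fell instead: P4ha1 from 83.1 and 79.7 TPM to 39.4 and 39.5 TPM (log2 change −1.03, limma adjusted p = 0.000434), and P4ha2 from 25.6 and 23.1 TPM to 9.13 and 4.26 TPM (log2 change −1.79, limma adjusted p = 0.00845). The collagen genes and these modifying enzymes moved in opposite directions in the same libraries.

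Of 19 other contractile and actin-linked genes tested, 11 rose, beside 25.2% of all tested genes, with a median fold of 1.17. Limma called 0 lower, also before adjustment, beside 14.7%. After median-ratio scaling 7 were called higher and 1 lower, and without control replicate 2 the count that rose was 5. Actg2, for smooth muscle gamma-actin, went from 5.24 and 2.57 TPM to 26.3 and 21.6 TPM, and Flnc, for filamin C, from 8.41 and 7.86 TPM to 23.9 and 18.6 TPM. Myh9, for non-muscle myosin, which blood cells also express, was at 912 and 906 TPM in control and 871 and 861 TPM in knockout and was not called. Of 10 tested genes of the YAP and TEAD system, 3 rose (Tead1, Tead2 and Yap1) and 1 fell (Lats2), shares near the 25.2% and 14.7% of all tested genes. Without control replicate 1, 1 was called higher. Tead2 went from 4.14 and 4.05 TPM to 11.1 and 9.95 TPM, while the target genes Amotl2 and Cyr61 were not called.

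Receptors for these signals were mostly lower or not called. Of 13 tested receptor genes, 7 fell and 1 rose, beside 14.7% and 25.2% of all tested genes. Notch1, a receptor for Delta-like 1, was at 159 and 161 TPM in control and 79.5 and 77.0 TPM in knockout (log2 change −1.02, limma adjusted p = 0.000281). Kit, the receptor for KIT ligand and one of the markers of the sort, was at 251 and 238 TPM in control and 157 and 157 TPM in knockout (log2 change −0.64, limma adjusted p = 0.000668). Cxcr4, the receptor for CXCL12, was at 51.4 and 59.9 TPM in control and 43.3 and 45.5 TPM in knockout (log2 change −0.32, limma adjusted p = 0.0415). Itga4, a subunit of the VCAM1 receptor, was at 270 and 274 TPM in control and 114 and 110 TPM in knockout (log2 change −1.28, limma adjusted p = 0.000147). For these 4 receptors both knockout libraries lay below both control libraries; Cxcr4 and Kit were looked up after the receptor list had been examined. Notch2, also a receptor for Delta-like 1, was at 51.6 and 52.2 TPM in control and 54.5 and 53.0 TPM in knockout and was not called, nor were Cd44 and Itgav. Il7r, for the receptor of interleukin 7, which stroma supplies, fell from 10.5 and 9.64 TPM to 1.25 and 0.962 TPM.

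Of 13 tested genes in a list of 18 other niche signals, 4 rose and 3 fell, beside 25.2% and 14.7% of all tested genes. Without control replicate 1, the count that rose was 1. Igf1 went from 1.62 and 1.495 TPM to 6.97 and 4.52 TPM, and Jag1, another Notch ligand, from 2.47 and 4.05 TPM to 8.23 and 6.74 TPM. Lif, for leukaemia inhibitory factor, fell from 4.34 and 3.61 TPM to 0.742 and 0.318 TPM. Csf1, for the macrophage growth factor, was at 8.37 and 8.33 TPM in control and 16.0 and 5.93 TPM in knockout, with the knockout libraries on both sides.

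Open chromatin at these genes was read from the authors' peak lists, of 103009 and 105227 entries for the control libraries and 109380 and 111007 for the knockout libraries. Without read counts in these lists the depth is unknown, and presence or absence of a peak was compared with no test. A peak within 1 kb of the start was present for 31 and 31 of the 46 genes in the control lists and for 37 and 38 in the knockout lists. It was present in both control lists for 30 genes (65.2%), beside 88.2% of 13201 genes tested in RNA with a mapped start, and in both knockout lists for 36 (78.3%), beside 89.1%. All 4 lists had one for 30 genes, beside 87.6%. No list had one for 7 genes, beside 9.3%: Col3a1, Col8a1, Lum, Dcn, Bgn, Postn and Cnn1. Lum, Dcn and Cnn1 were not tested in RNA, unlike the genes behind the shares set beside them. Among the 41 tested genes of the set, 70.7% had a start peak in both control lists and 85.4% in both knockout lists. All 4 lists had one for 70.7% of the 41, and no list for 9.76%.

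Col3a1 and Bgn are RNAs of some abundance in this set. Bgn reached 294 TPM with no peak at its start, and Col3a1 reached 92.7 TPM. Levels help to place this: among the 18 genes of this set with a mean of 20 to 100 TPM, 12 (66.7%) had a start peak in both control lists and 16 (88.9%) in both knockout lists. Among all 5023 tested genes at that level the shares were 96.2% and 96.8%. Among the 11 genes at 100 to 1000 TPM, 9 (81.8%) and 10 (90.9%) had one, beside 96.9% and 97.1% of 1239 genes. With peaks of a −log10 q of at least 10 only, 19 of the 46 had a start peak in both control lists and 31 in both knockout lists, beside 86.2% and 87.4% of tested genes. For the 41 tested genes of the set these shares were 43.9% and 73.2%.

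**Figure D4:**
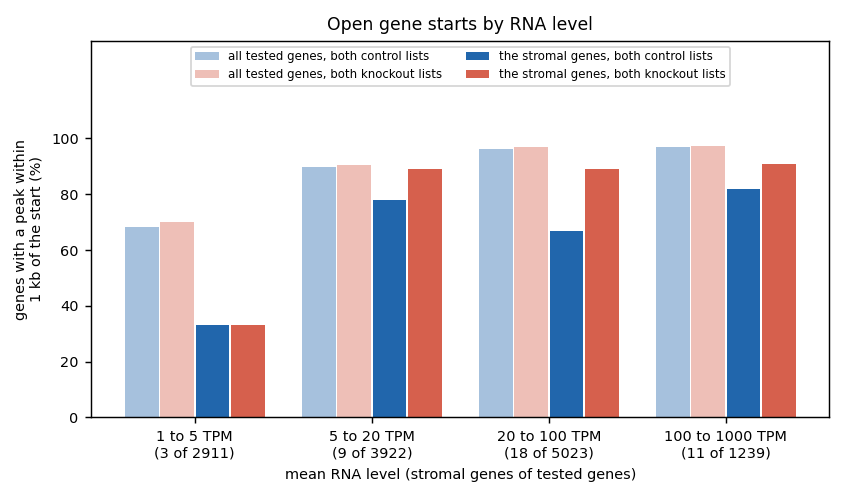
Share of genes with an ATAC peak within 1 kb of the start in both lists of a genotype, in percent (vertical axis), by mean RNA level in TPM (horizontal axis), for the 41 tested genes of the set (dark bars) and all tested genes (pale bars). At 20 to 100 TPM the set lies at 66.7% in control and 88.9% in knockout, below the 96.2% and 96.8% of all tested genes.

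Where a start peak was present, it was usually modest. The median fold enrichment over local background of these start peaks, as the authors' peak caller gave it, was 7.28 and 7.03 in the control lists and 7.58 and 7.24 in the knockout lists for the tested genes of this set. For all tested genes it was between 13.9 and 14.1. Within its own list, the median start peak of these genes sat at percentile 36.3 to 43.3, against 77.4 to 79.3 for all tested genes. These folds rank peaks within a list and give no change between genotypes.

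The most abundant RNAs did not have the strongest start peaks. The start peak of Igfbp4, at the highest RNA level of the set, had a fold of 3.52 and 3.16 in control and 3.42 and 4.04 in knockout, between percentiles 1.42 and 5.14 of its lists. That of Dll1 had a fold of 4.51 and 4.34 in control and 3.93 and 3.72 in knockout, between percentiles 3.53 and 7.81. In control replicate 2 the value belongs to a different peak, with its summit 1111 bases after the start. Cxcl12 was at 4.84 and 5.07 and at 5.62 and 5.48. Timp2 stood at the other end, with a start peak of 17.8 to 19.7 in all 4 lists, between percentiles 89.8 and 93.9. Col6a2 had 13.7 and 12.1 in control and 17.1 and 17.98 in knockout. A peak 8958 to 8960 bases before the start of Mmp2 was among the strongest of any list, with a fold of 22.1 to 26.2 and a percentile of 97.3 to 99.7. Cnn1, nearly silent as RNA, had a peak of 18.5 to 22.9 about 3 kb before its start in all 4 lists.

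**Figure D5:**
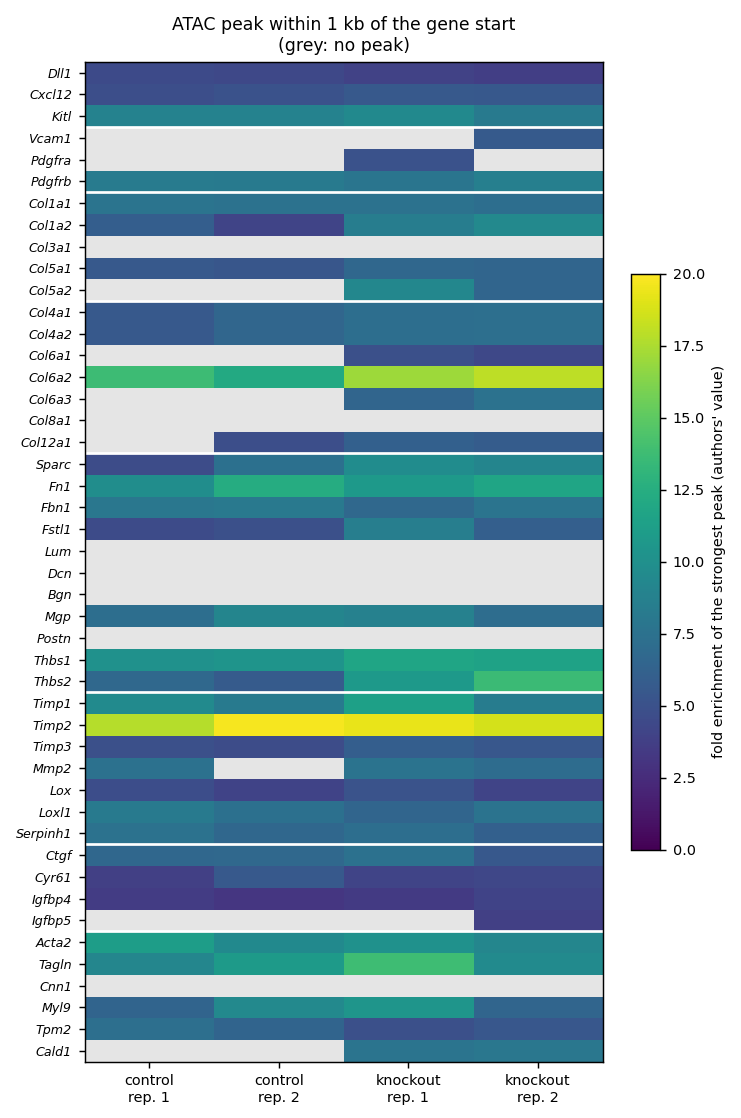
Fold enrichment of the start peak of each of the 46 genes in each ATAC list, as the authors' peak caller gave it (colour scale from 0 to 20; grey where no peak lay within 1 kb of the start). Cald1, Col5a2, Col6a1 and Col6a3 are coloured in both knockout lists only, and 7 genes are grey in all 4 lists.

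Start peaks confined to 1 genotype were found for 4 of the 46 genes, all in knockout: Col5a2, Col6a1, Col6a3 and Cald1. Among all tested genes 0.795% had a start peak in both knockout lists and neither control list, and 0.311% the reverse, which was seen for none of the 46. The peak of Cald1 (chr6:34598333-34598624) had its summit 31 bases before the start and a fold of 7.72 and 7.96. That of Col5a2 (chr1:45502964-45503227) lay 190 bases after the start with 9.24 and 6.54. That of Col6a3 (chr1:90843969-90844227) lay 123 bases before it with 6.56 and 7.56, and that of Col6a1 (chr10:76726015-76726207) 99 bases before it with 4.85 and 4.32. These coordinates are those of knockout replicate 1, and the capitals in the printed sequences mark where the peaks of both knockout lists overlap. The RNA of all 4 genes was called higher in knockout, as was that of 33 of the 41 tested genes of the set (80.5%).

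Within 10 kb of the start, 39 of the 46 genes had a peak in both control lists, beside 97.0% of tested genes, and 43 in both knockout lists, beside 97.6%. For the 41 tested genes of the set the shares were 87.8% and 97.6%. Lum and Dcn, neither tested in RNA, had none in any list. Of the 41 tested genes of the set, 0 had no peak in any list, beside 1.72% of all tested genes. At least 1 peak in each knockout list and none in either control list was seen for 4 genes (Vcam1, Col5a2, Bgn and Cald1), beside 0.432% of tested genes, and the reverse for none, beside 0.053%. For Vcam1 these were different peaks in the knockout lists, which did not overlap. Taken peak by peak, knockout replicate 1 had 127 peaks within 10 kb of these starts. Of these, 90 were met in all 4 lists and 14 (11.0%) in both knockout lists alone, beside 5.56% of the peaks near all tested genes. Control replicate 1 had 106, of which 91 were in all 4 lists and 1 (0.943%), near Timp2, in both control lists alone, beside 3.83%. Where the overlapping peak of replicate 2 also had to be clear of both control lists, 12 knockout-alone peaks (9.45%) were left, beside 5.39% near all tested genes. The Bgn peak (chrX:73476667-73476927) lay 6826 bases before the start, far outside the printed sequence, with folds of 10.2 and 6.35.

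The 2 peaks lost by that rule lay just after the starts of Lox and Ctgf, where the peak of knockout replicate 2 was a wider one that also met the start peaks of the control lists. The other knockout-alone peaks lay just after the start of Cyr61, and farther out near Sparc, Col6a3, Acta2, Myl9 and Tpm2. For Acta2 replicate 1 had 2 neighbouring peaks 7083 and 7411 bases before the start. Its start peak, which was present in all 4 lists, and a stronger one about 6.6 kb into the gene, with a fold of 16.996 to 18.3, were shared by both genotypes. Postn had its strongest peak 2422 to 2488 bases before the start in 3 lists, with a fold of 8.72 in control replicate 2 and 11.9 and 12.6 in knockout. All 3 niche signal genes had a start peak in all 4 lists, and none had one confined to a genotype within 10 kb of its start. The share of DNA from monolayer cells in the ATAC libraries was not tested.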

How the data were processed

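RNA-seq and ATAC-seq were each measured in 2 control and 2 knockout libraries, grouped by sample title. Per the submitters' processing notes, HISAT2, StringTie, Bowtie2 and MACS2 were used on mm10; their versions, the use of strand, peak thresholds and any shift of reads are not given here. The deposited TPM (summed over entries with 1 name) was the main measure. The deposited FPKM served as an alternative, and the deposited coverage signal gave only its ratio to FPKM (2.12 to 2.64), which follows depth. Per the narrowPeak layout, the authors' lists give a fold (ratio over local background) and −log10 p and −log10 q per peak, called per library.

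RNA was compared with limma 3.58.1 (intensity trend, R 4.3.3) on log2(TPM + 1), which understates the change of low genes, over 13228 genes with a mean of at least 1 TPM, with genotype as the only term; the code was tested on simulated data. A peak counted by any base within the distance of the gene start in the RNA files, and peaks were shared with 1 base of overlap. Alternatives changed the pseudocount, filter, scaling, unit, block, libraries, distance, q and overlap. The members and lists (other matrix, matrix processing, other contractile, YAP and TEAD, niche signal, receptor, mesenchymal, adipocyte, endothelial, osteoblast, pericyte, macrophage, megakaryocyte and haematopoietic genes) were chosen with earlier results of these data known. Named genes are all members, from each other list up to 4 called genes with the largest change and up to 3 of the most abundant not called, Tcf7 and Lef1, and each member's strongest peak within 10 kb; others (such as Cxcr4 and start or one-genotype peaks) were chosen after their values were seen.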

Additional observations from a re-analysis of the deposited data

How the results depend on the processing

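The count of tested genes of the set called higher was 33 as reported, 29 to 34 under the other pseudocount, filters, scalings, FPKM and the block, and 21 to 30 with 1 library left out, where the lone library of a genotype is assumed to vary like the other genotype. The count called lower was 0, and 0 to 1 with a library left out. Over all tested genes, 2005 to 2242 were then higher and 1088 to 1450 lower, against 3331 and 1940. Quantile normalization gave 2608 and 2296, and leaving the Rpph1 transcript out of the TPM scaling 2749 and 2312. In all, 21 of the 33 calls held in every alternative that tested the gene: Dll1, Cxcl12, Kitl, Col1a1, Col1a2, Col5a2, Col4a1, Col4a2, Col6a1, Col6a2, Fbn1, Fstl1, Bgn, Mgp, Postn, Timp2, Mmp2, Acta2, Tagln, Myl9 and Cald1. Genes near 0 changed sign: Lox to −0.037 with median-ratio scaling, −0.0022 without Rpph1 and −0.40 to 0.53 over left-out libraries, Pdgfrb −0.087 to 0.078, and Cyr61 −0.30 to 0.035; the cause was not tested. Over all tested genes together, same-numbered libraries did not deviate together (correlation 0.0043). As 1 value over all genes, it cannot exclude a pairing that touches only some of them. With the replicate block 34 genes of the set, and 3072 higher and 1798 lower of all genes, were called. Tpm2 was lost and Sparc (limma adjusted p = 0.0026) and Igfbp4 were gained. Within 50 kb, 2 genes had a peak in knockout alone, against 4 within 10 kb. With 1 library left out, the other matrix list had 7 or more genes called higher against 12, the matrix processing list 5 or more against 9, the other contractile list 5 or more against 11, the other niche signal list 1 or more against 4, and the YAP and TEAD list 1 or more against 3. Matrix processing genes called lower were then 1 or more against 4. Haematopoietic genes called higher went from 3 to 1 under each scaling and with any 1 library left out. Unknown read depth limits statements on genes under 1 TPM, and 2 libraries a genotype limit the precision of all others.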

Other observations

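Among the tested genes of the set, replicate 1 was below replicate 2 in both genotypes for Sparc, Timp1 and Vcam1. The ratio of replicate 1 to replicate 2 was 0.559 for Sparc and 0.536 for Timp1 in control, and 0.657 and 0.880 in knockout, while the median over the 41 tested genes was 0.987 and 1.21. Col8a1 also had a low ratio in control (0.523) but not in knockout (1.12). Platelets also carry SPARC. Of 6 megakaryocyte and platelet genes, 1 was higher in replicate 1 than in replicate 2 in knockout and 2 in control. Ppbp, for a platelet chemokine, had ratios of 0.522 in control and 0.645 in knockout, and Treml1 0.0534 and 0.507. Treml1 was below 1 TPM in control replicate 1, so its control ratio rests on a value near the floor. Gp1bb was also lower in replicate 1 in both genotypes. Pf4 was higher in replicate 1 in knockout, and Itga2b and Gp9 were higher in replicate 1 in control. Pf4, Itga2b and Gp9 thus did not share the direction of Sparc in both genotypes. Between genotypes, limma called 1 of these 6 genes higher (Pf4, at 26.0 and 32.2 TPM in control and 70.3 and 67.0 TPM in knockout) and 1 lower (Itga2b, at 97.0 and 94.1 TPM and at 48.8 and 54.7 TPM). Over all tested genes, 25.2% were called higher and 14.7% lower. Any relation between Sparc and these genes was not tested.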
